A study of Arabidopsis thaliana with 8 samples.

Results

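The 4 genes described here, AT3G54210 (RPL17), AT5G65220 (RPL29), AT4G01310 (RPL5) and AT3G13120 (RPS10), are nuclear genes of Arabidopsis thaliana that encode proteins of the plastid ribosome. They were chosen by name among genes that the platform annotation pairs with a probe of exactly 1 gene. Earlier results of these data were known when they were chosen. A list of nuclear genes for plastid ribosomal proteins holds 6 genes with such a probe. Among these 6 are also AT1G29070 and AT1G64510, which were not tested and are described below. The genes described here are 4 of 691 genes with such a probe, and the array table holds 3439 probes in all. Total RNA of 4 petc and 4 WT samples was hybridised to expression arrays. Per the labels, petc plants have no Rieske protein, an iron-sulfur subunit of the cytochrome b6f complex, which links the photosystems in the thylakoid membrane. Both genotypes are of the ecotype Landsberg and carry replicate numbers 1 to 4. The labels used here name no allele, tissue, age or growth condition, and do not say whether the replicates are separate plants, so each p-value rests on a spread that may be only technical. The question of the comparison is how transcript levels in petc differ from those in WT.

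The plastid ribosome is of the bacterial type and translates the messages of the plastid genome, among them those for core subunits of the photosystems, the cytochrome b6f complex, the ATP synthase and the large subunit of Rubisco. Its ribosomal RNAs and a part of its proteins are encoded in the plastid, while the other proteins are made in the cytosol from nuclear genes and imported. In bacterial ribosomes the homologues of RPL17 and RPL29 lie around the exit of the tunnel through which the new polypeptide leaves the large subunit. The bacterial L5 protein belongs to the central protuberance of the large subunit, and S10 belongs to the head of the small subunit. In Escherichia coli, S10 also takes part in transcription antitermination.

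In each sample 2978 to 3009 of the 3439 probes had an intensity above 0, and the deposited intensities of a sample summed to 3287 to 3440 in arbitrary units. All 4 probes were above 0 in all 8 samples, and precision is limited by the number of arrays. They covered much of the range of brightness: 93.3% to 97.5% of the probes above 0 in a sample were dimmer than RPL29, 65.9% to 88.6% were dimmer than RPL17, 62.7% to 73.3% than RPL5 and 18.8% to 30.3% than RPS10. Brightness depends on the probe as well as on the transcript, so these shares do not order the genes by abundance. Samples 1 and 2 of a genotype, and samples 3 and 4, formed sets of close duplicates: Spearman's rho across probes was 0.975 to 0.988 within a set and 0.900 to 0.921 between the sets of a genotype. Values are given by set where the sets differ.

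In petc, 2 of the 4 genes, both of the large subunit, fell, and none rose. RPL17 fell to 0.553 of the WT level and RPL29 to 0.567 of it after quantile normalisation (n = 4 per group), although RPL29 passed the test only under scalings that match the distributions of the arrays. RPL5, also of the large subunit, and RPS10, of the small subunit, did not pass, with estimates of 0.937 and 1.04 of the WT level. Over all 2947 tested probes 27.9% passed limma's adjusted threshold of 0.05, and 15.3% passed and were lower in petc, so the members' count of 2 in 4 comes from too short a list to be set apart from this background. With the replicate number as a block 46.6% of all probes passed. With the duplicates of a set averaged, 2 against 2 values, neither RPL17 (limma adjusted p = 0.140) nor RPL29 (0.200) passed, and limma called 0 probes in all, with 585 at an unadjusted p below 0.05. The median log2 fold change was -0.46 over the 4 genes and -0.02 over all tested probes. In samples of whole RNA, fewer cells that express a gene and less of its RNA per cell cannot be told apart.

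RPL17 had deposited intensities of 0.681, 0.676, 0.590 and 0.611 in petc replicates 1 to 4, against 1.16, 1.25, 1.04 and 1.07 in WT replicates 1 to 4. All 4 petc samples lay below all 4 WT samples, and the lowest WT value was well above the highest petc value. Such a separation, lower in petc, was seen for 15.4% of all tested probes in the deposited values. The mean was 0.639 ± 0.0459 in petc and 1.13 ± 0.0947 in WT (SD, n = 4 each). The log2 fold change was -0.85 ± 0.12 (SE, limma adjusted p = 0.00124), and 7.13% of all tested probes had a lower one. On the deposited values, samples 1 and 2 gave a change of -0.83 and samples 3 and 4 one of -0.82, while the largest difference between the 2 samples of any set was 0.10 on the log2 scale. As deposited, the RPL17 signal was thus lower in petc by nearly the same factor in both sets. The level itself was lower in numbers 3 and 4 than in numbers 1 and 2 by 0.18 (log2) in petc and 0.19 in WT. After normalisation the change was -0.80 for samples 1 and 2 and -0.91 for samples 3 and 4. Within the arrays, 65.9% to 74.6% of the probes above 0 were dimmer than RPL17 in petc, against 85.4% to 88.6% in WT.

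**Figure D1:**
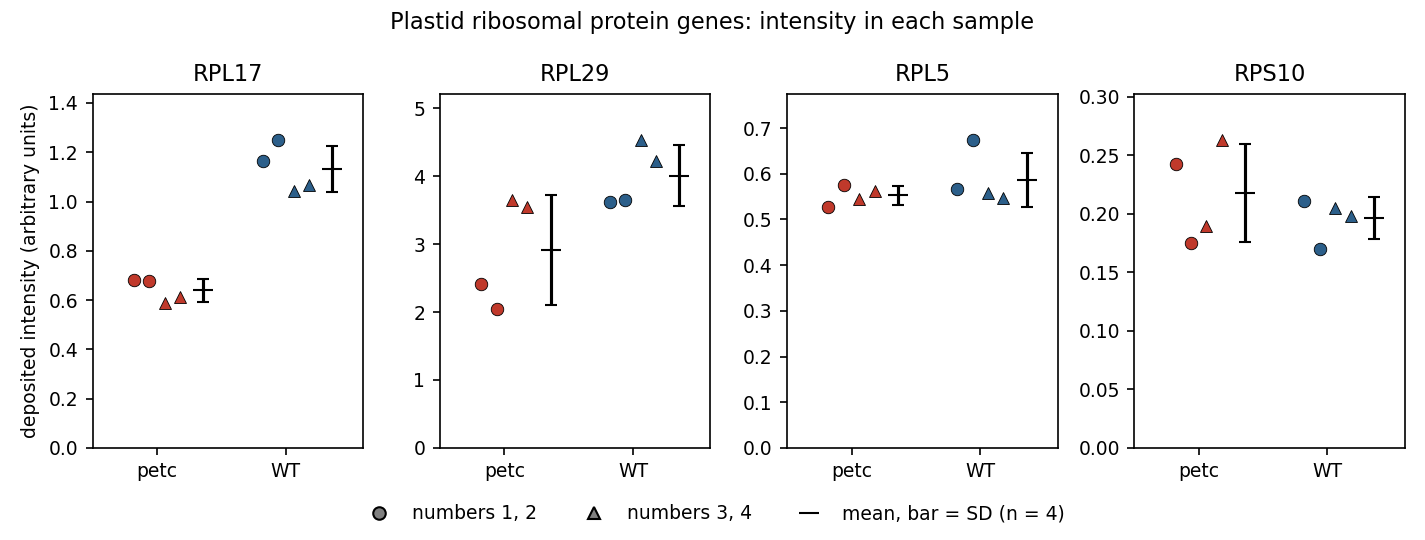
Deposited intensity (arbitrary units, axis from 0) of the 4 genes in each petc and WT sample, with circles for numbers 1 and 2, triangles for numbers 3 and 4, and the mean with its SD (n = 4) beside them. The 4 petc values of RPL17, 0.590 to 0.681, lie below the WT values of 1.04 to 1.25, whereas the groups overlap for RPL29, RPL5 and RPS10.

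RPL29 had deposited intensities of 2.41, 2.04, 3.65 and 3.55 in petc replicates 1 to 4, against 3.62, 3.65, 4.54 and 4.23 in WT replicates 1 to 4. The groups overlapped as deposited, because petc replicate 3 lay between WT replicates 1 and 2, but within each set both petc samples were below both WT samples. The mean was 2.91 ± 0.807 in petc and 4.01 ± 0.448 in WT (SD, n = 4 each), a spread of 27.7% of the mean in petc and 11.2% in WT. Unlike that of RPL17, the RPL29 signal was higher in numbers 3 and 4 than in numbers 1 and 2, by 0.70 (log2) in petc and by 0.27 in WT. On the deposited values the difference between petc and WT was -0.71 for samples 1 and 2 and -0.28 for samples 3 and 4. After normalisation these differences were -0.98 and -0.66.

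How far RPL29 differed depended on the scaling between arrays. After quantile normalisation its log2 fold change was -0.82 ± 0.17 (SE, limma adjusted p = 0.00885), and all 4 petc values, 0.98 to 1.67 on the normalised log2 scale, were below the WT values of 2.06 to 2.35. Over all tested probes 17.7% were separated in this way, lower in petc, on the normalised values. As deposited it was -0.50 ± 0.20 (limma adjusted p = 0.110), and after centring each array on its median -0.54 ± 0.18 (limma adjusted p = 0.0619), and neither passed. Under these scalings 28.3% and 26.9% of all tested probes passed. The upper part of the petc columns was brighter: the 95th percentile of the log2 intensity was 1.40 to 1.56 in petc and 1.24 to 1.29 in WT, a mean difference of 0.21, while the medians differed by 0.04. Quantile normalisation, which removes such differences, moved RPL29 by -0.13 in petc and 0.19 in WT, and moved the fold change of RPL17 by only -0.03, that of RPL5 by -0.01 and that of RPS10 by -0.08. By rank within the array, 93.3% to 95.9% of the probes above 0 were dimmer than RPL29 in petc, against 96.8% to 97.5% in WT, and this order is what the normalised values keep. Whether the brighter upper part of the petc columns came from the arrays or from the RNA was not tested.

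**Figure D2:**
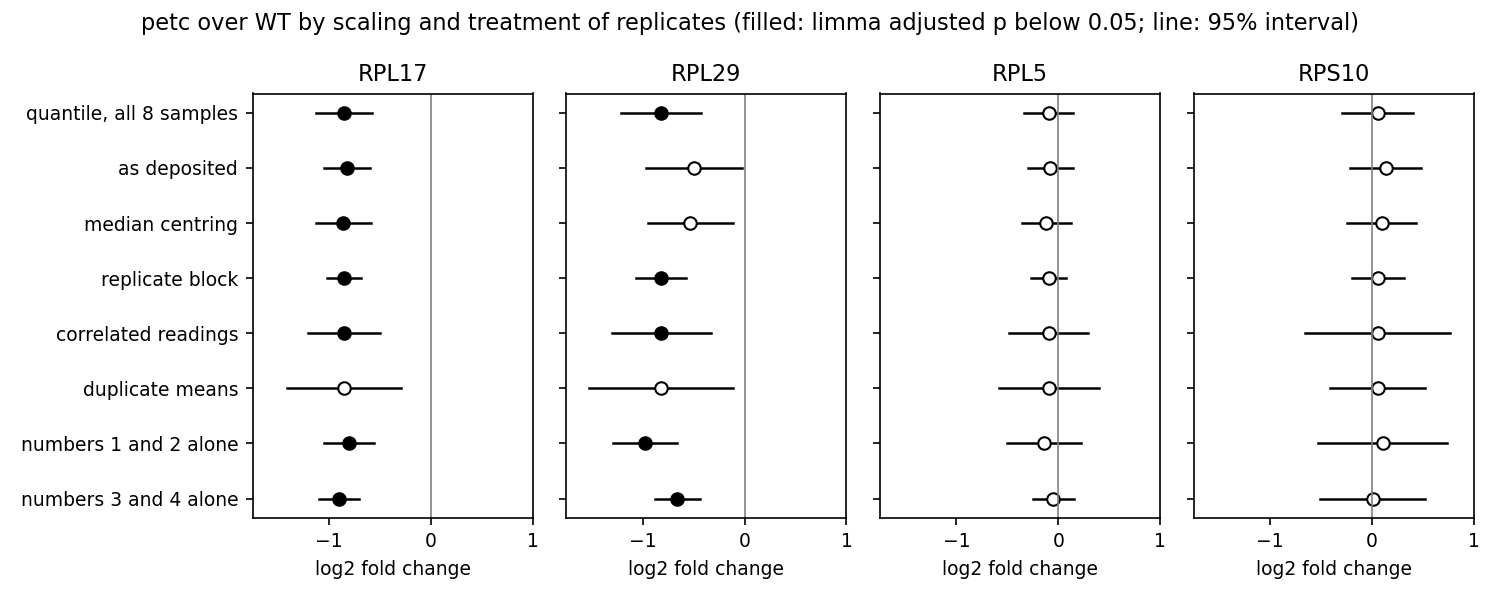
Log2 fold change of each gene, petc over WT, with its 95% interval, under 3 scalings, 3 treatments of the replicates and in each set alone; filled points passed limma's adjusted threshold of 0.05. RPL17 stays between -0.91 and -0.80 in the fits shown, RPL29 moves to -0.50 as deposited, and RPL5 and RPS10 stay near 0.

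RPL5 had deposited intensities of 0.527, 0.576, 0.545 and 0.562 in petc replicates 1 to 4, against 0.567, 0.675, 0.557 and 0.546 in WT replicates 1 to 4. Apart from the higher WT replicate 2, the samples of both groups lay in the same narrow range, and the petc samples varied by 3.80% of their mean of 0.553 ± 0.0210 (SD, n = 4), against a WT mean of 0.586 ± 0.0595 (SD, n = 4). The log2 fold change was -0.09 ± 0.10 (SE, limma adjusted p = 0.570), with a 95% interval of -0.33 to 0.14. In this fit the interval for RPL17 was -1.12 to -0.58, and the 2 intervals did not overlap. With the duplicates of a set averaged they did, at -0.58 to 0.40 for RPL5 and -1.41 to -0.30 for RPL17. The ratio of the 2 genes is compared directly below.

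RPS10, the dimmest of the 4 probes, had deposited intensities of 0.242, 0.175, 0.190 and 0.263 in petc replicates 1 to 4, against 0.211, 0.170, 0.205 and 0.198 in WT replicates 1 to 4. Of the petc values, 2 lay within the WT range and 2 above it, and those of the same set differed by 0.47 on the log2 scale in both petc sets, more than for any of the other 3 genes. The mean was 0.218 ± 0.0420 in petc and 0.196 ± 0.0180 in WT (SD, n = 4 each). The log2 fold change was 0.06 ± 0.15 (SE, limma adjusted p = 0.838), with a 95% interval of -0.29 to 0.40. Its sign turned when petc replicate 1, petc replicate 4 or WT replicate 2 was left out (-0.021, -0.026 and -0.016), so no direction is given for it.

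**Figure D3:**
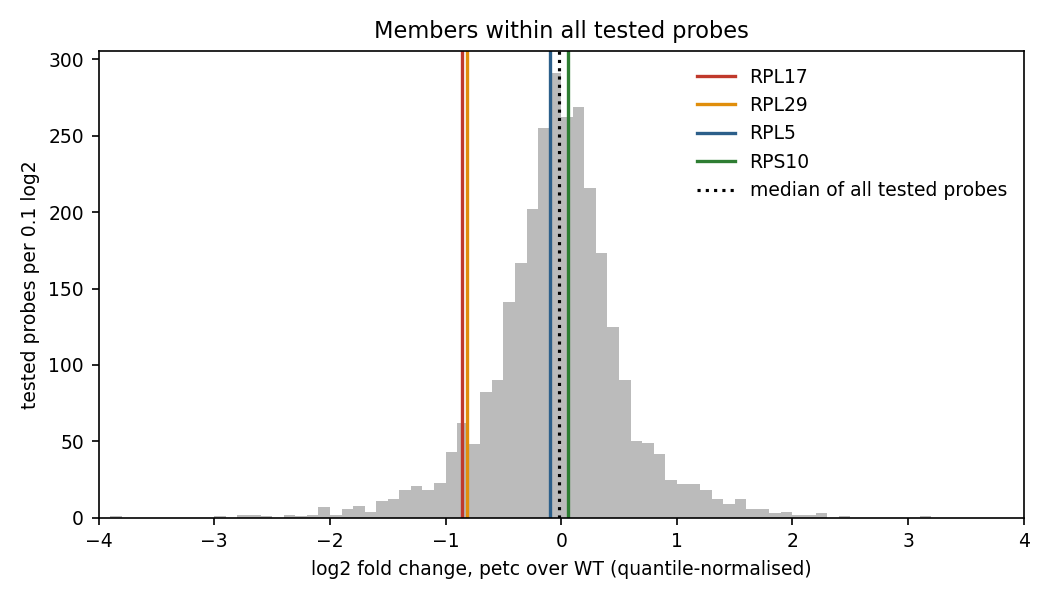
Histogram of the log2 fold change, petc over WT, of all 2947 tested probes in bins of 0.1, with the 4 genes as coloured lines and the median of all probes, -0.02, as a dotted line. RPL17 at -0.85 and RPL29 at -0.82 lie in the lower tail, where 7.13% and 8.01% of the probes have lower values, and RPL5 at -0.09 and RPS10 at 0.06 lie near the middle.

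The ratio between the signals of a pair of genes within a sample is independent of any factor that scales the whole array. The size of such a ratio also reflects the probes, so only its difference between petc and WT is read. The log2 ratio of RPL17 to RPL5 was 0.37, 0.23, 0.11 and 0.12 in petc replicates 1 to 4, against 1.04, 0.89, 0.91 and 0.97 in WT replicates 1 to 4. All petc samples were below all WT samples, by 0.74 ± 0.07 on average (SE of the difference, n = 4 each), so the ratio in petc was 0.597 of that in WT. The log2 ratio of RPL17 to RPS10 was 1.49, 1.95, 1.64 and 1.21 in petc replicates 1 to 4, against 2.46, 2.88, 2.35 and 2.43 in WT replicates 1 to 4. Again the groups did not overlap, and the ratio in petc was 0.515 of that in WT. Both ratios use the RPL17 values given above, with partner genes that did not pass on their own. Taken singly, 15.4% of all tested probes were separated and lower in petc as deposited. The share of probe pairs that separate in this way was not computed, for these ratios or those below.

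In all, 6 such ratios were compared by a two-sided exact permutation of the sample labels, for which 0.0286 is the smallest p possible with 4 against 4 samples. RPL17 to RPL5 and RPL17 to RPS10 both reached exact p = 0.0286, or 0.0857 after Benjamini-Hochberg adjustment over the 6 ratios, which does not pass 0.05. The permutation takes the 8 samples as exchangeable, while the samples of a set were alike. From quantile-normalised values, RPL29 to RPL5 and RPL29 to RPS10 separated as well, so that 4 ratios had exact p = 0.0286, or 0.0429 adjusted. The exact p of RPL17 to RPL5 and RPL17 to RPS10 was unchanged. Their adjusted p fell only because more ratios reached the smallest p possible. The 6 ratios share genes, so they are not independent.

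On the deposited values, the log2 ratio of RPL29 to RPS10 was 3.32 to 4.27 in petc and 4.10 to 4.47 in WT, a difference of -0.63 ± 0.22 (SE, exact p = 0.0571, adjusted 0.114). It was lower in petc in all 4 numbers. The log2 ratio of RPL29 to RPL5 was 1.82 to 2.74 in petc and 2.44 to 3.03 in WT, a difference of -0.42 ± 0.25 (SE, exact p = 0.171, adjusted 0.257), and it too was lower in petc in all 4 numbers. The ratio of RPL5 to RPS10 differed by -0.21 ± 0.20 (SE, exact p = 0.343, adjusted 0.343), and the groups overlapped.

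The ratio between the 2 genes that fell was less steady than their separate changes. The log2 ratio of RPL17 to RPL29 was -1.83, -1.59, -2.63 and -2.54 in petc replicates 1 to 4, against -1.64, -1.55, -2.12 and -1.98 in WT replicates 1 to 4. It was lower in numbers 3 and 4 of both genotypes, since RPL17 was dimmer and RPL29 brighter there. The difference between petc and WT was -0.32 ± 0.29 (SE, exact p = 0.314, adjusted 0.343). Samples 1 and 2 gave -0.12 and samples 3 and 4 gave -0.53, and quantile-normalised values gave -0.04 over all samples. The ratio was lower in petc in all 4 numbers on the deposited values, where an exact sign-flip test over the 4 pairs gave p = 0.125, the smallest it can give, and in 2 of 4 numbers on quantile-normalised values. These data do not settle whether RPL17 and RPL29 changed by different factors.

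**Figure D4:**
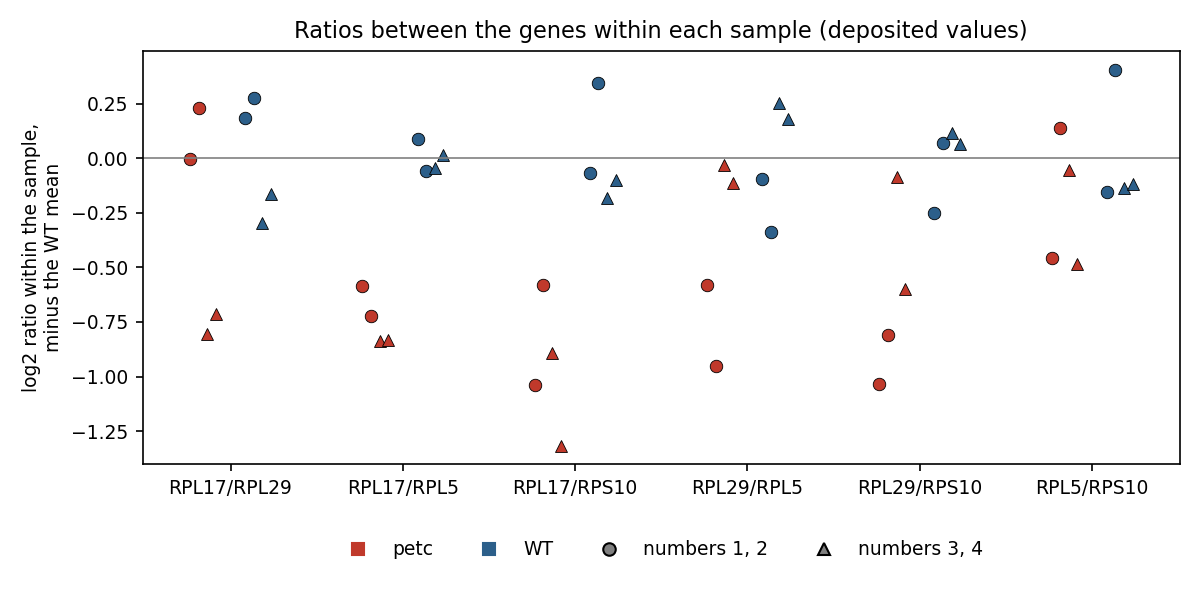
Log2 ratio between the deposited intensities of 2 genes within each sample, minus the WT mean of that ratio, for the 6 pairs, with petc in red and WT in blue, circles for numbers 1 and 2 and triangles for numbers 3 and 4. The groups do not overlap for RPL17 to RPL5 and RPL17 to RPS10, and the share of other probe pairs separated likewise was not computed. The differences between group means run from -0.96 to -0.21 over the 6 pairs.

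The 4 genes are part of a larger set, of which few could be read. A list of 41 nuclear genes for plastid ribosomal proteins, 27 of the large and 14 of the small subunit, was matched to the array, and 6 of them had a probe of exactly 1 gene. Besides the 4 genes above these were AT1G29070, of the large subunit list, and AT1G64510, of the small subunit list. AT1G64510 was listed at 0 in all 8 samples. AT1G29070 was listed at 0 in all samples except petc replicate 4, where it had an intensity of 0.0664. Neither entered the test, and no fold change is given for them. Of the 4 tested genes of the list 0 rose, 2 fell and 2 did not pass. Of 12 genes for plastid translation factors and 9 for plastid ribosome assembly and RNA processing, 0 had a probe of exactly 1 gene, and neither did any of 48 further genes that RefSeq names as ribosomal proteins. Genes that RefSeq does not name in this way, by symbol or synonym, were not looked for. Whether ribosomal proteins of the cytosol or the mitochondria moved with RPL17 and RPL29 was not analysed here.

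The pattern of each gene over the 8 samples was also set against those of 586 single-gene probes measured in all samples. The likeness was the root mean square difference between normalised log2 values after each probe was centred on its own mean. It reads both the petc change and the difference between the sets. Features that the nearest probes share with a gene therefore follow from how they were picked, and are only described. The pattern most like that of RPL17 was that of AT5G06990, at a difference of 0.064, followed by AT4G16490 at 0.082 and AT1G61990 at 0.095. The median difference from RPL17 over all these probes was 0.53. AT5G06990, with a log2 fold change of -0.82, shared with RPL17 the lower values in numbers 3 and 4 of both genotypes.

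The patterns most like that of RPL29 were those of AT1G12800 and AT1G03810, both at a difference of 0.14, and AT4G15840 at 0.17. All 3 were higher in numbers 3 and 4 than in numbers 1 and 2 of the same genotype, as RPL29 was. AT1G12800 had a deposited intensity of 2.72 ± 0.778 in petc and 4.05 ± 0.769 in WT (SD, n = 4 each). RPL29 itself was at a difference of 0.35 from RPL17. At least as close were 19.1% of the probes to RPL17 and 10.2% of the probes to RPL29. The nearest to RPL5 were AT2G45500 at 0.060, AT1G79080 at 0.066 and AT1G07040 at 0.069, all of which shared its highest value in WT replicate 2. The nearest to RPS10 were AT1G42960 at 0.11, AT1G54500 at 0.15 and AT1G01080 at 0.16. Over all compared probes the median difference was 0.53 from RPL29, 0.31 from RPL5 and 0.36 from RPS10. No member was among the 3 nearest patterns of another, a cut that takes only 3 of 586 probes, so little can be read from it.

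**Figure D5:**
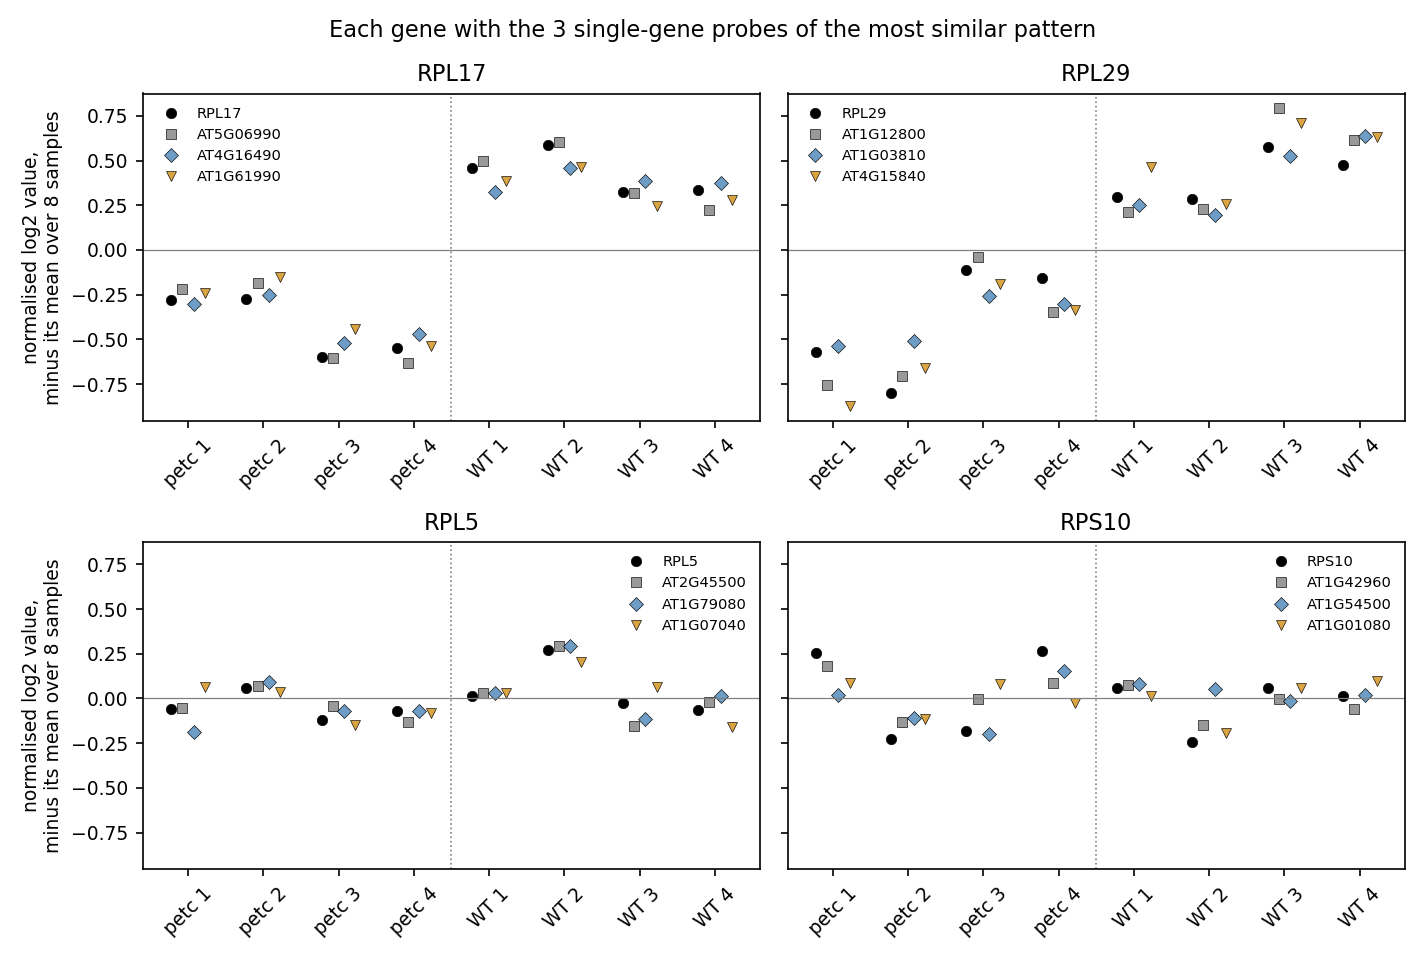
Normalised log2 value in each sample, minus the probe's mean over the 8 samples, for each gene (black circles) and the 3 single-gene probes of the most similar pattern (other symbols), with petc left and WT right of the dotted line. In petc, the probes nearest to RPL17 are lower in numbers 3 and 4 than in numbers 1 and 2, and those nearest to RPL29 are higher there. The probes nearest to RPL5 share its highest value in WT replicate 2. The probes were picked for this likeness.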

How the data were processed

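The deposited table, GEO's series matrix, holds 1 intensity per probe and sample on a linear scale. For the deposited intensities the sources used here give no scanner, background correction, scaling or filter. GEO's platform annotation pairs 692 probes with 1 gene, 870 with several and 1877 with none listed. The RefSeq gene table of TAIR10.1 held 690 of the 692 and was used for names only. The mutated gene is not analysed here.

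Values of 0 were taken as missing and the others to log2. The column medians differed by 0.131, above a limit of 0.1, so arrays were quantile normalised. The 2947 probes with at least 3 values per group were fitted with limma 3.58.1 in R 4.3.3, with Benjamini-Hochberg adjustment over all of them. The script was tested on simulated data with independent samples. The duplicates of a set here were correlated (0.674), so that simulation does not give the error rate of this fit. Intensities are printed as deposited and fold changes from normalised values unless stated. Ratios used exact permutation (scipy 1.17.1).

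The genes named are the 4 members, the measured members of the lists, and for each member the 3 single-gene probes of nearest pattern. Members, lists and tests were chosen with earlier results of these data known. Same-numbered petc and WT samples deviated together from their group means (Pearson r of 0.586 to 0.649 across probes, which are not independent), so the number was also fitted as a block. Samples of unlike number were not compared in this way. The correlation therefore cannot tell a pairing by number from the likeness of the samples of a set. The pairing comes from the data, not from a label, as do the sets (numbers 1 and 2, and 3 and 4). Alternatives changed the scaling, the filter, an offset of 0.1 before log2, the variance model and the treatment of replicates.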

Additional observations from a re-analysis of the deposited data

Results flagged for a closer look

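In 20 groups of 4 samples, covering the normalised values of the 4 genes and their 6 ratios, 3 held a sample that stood apart from the other 3, where chance gives about 1 in 20 groups. The groups share probes, so these are not separate observations. All 3 involve RPS10, the dimmest of the 4 probes. RPS10 in WT replicate 2 had a normalised log2 value of -2.53, against -2.28 to -2.23 in the other WT samples. The log2 ratio of RPL5 to RPS10 in that sample was 1.99, against 1.43 to 1.46 in the others. The log2 ratio of RPL29 to RPS10 in WT replicate 1 was 4.10, against 4.42 to 4.47 in the others.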

How the results depend on the processing

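With 4 arrays per group and sets of close duplicates, the treatment of the replicates weighs most on the count of probes past the threshold. For RPL29 the scaling between arrays weighs as well. The count of 823 probes past the threshold was 1374 with the replicate block, 1358 with the set as a block, 345 with the samples of a set as correlated readings and 0 with the duplicate means (585 at an unadjusted p below 0.05 in limma). Fitted as duplicate means, 2 against 2, RPL17 (-0.85, limma adjusted p = 0.140) and RPL29 (-0.82, 0.200) lost their calls, leaving 0 of the 4 genes; this fit has fewer samples. The replicate block changed no call of the 4 genes (RPL17 -0.85, limma adjusted p = 0.000639; RPL29 -0.82, 0.00205). RPL29 also lost its call as deposited (-0.50), after median centring (-0.54) and after centring on the middle 50% of probes (-0.53, limma adjusted p = 0.0635), leaving 1 gene past the threshold. RPL17 kept its call in 20 of 21 alternatives, with -0.91 to -0.76, RPL29 in 17 of 21, with -0.98 to -0.50, and RPL5 did not pass in any of 21. Of these alternatives, 8 left out a single sample while its close duplicate stayed in, so the alternatives are not separate checks. RPS10 did not pass in any of 20 and had opposite signs without single samples. It was not among the probes left when the dimmest 25% were set aside.

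Leaving out 1 sample at a time gave 630 to 729 probes past the threshold and 2 of the 4 genes each time. The close duplicate of the sample left out stayed in the fit, so these fits check the calls only weakly. The log2 fold changes were -0.90 to -0.80 for RPL17 (limma adjusted p up to 0.00542), -0.92 to -0.68 for RPL29 (up to 0.0279), -0.13 to -0.02 for RPL5 and -0.026 to 0.14 for RPS10. The differences of the ratios were then -0.80 to -0.71 for RPL17 to RPL5, -1.08 to -0.84 for RPL17 to RPS10, -0.51 to -0.16 for RPL17 to RPL29, -0.55 to -0.24 for RPL29 to RPL5, -0.82 to -0.50 for RPL29 to RPS10 and -0.33 to -0.08 for RPL5 to RPS10, with no test. Quantile-normalised values brought 4 ratios past the adjusted threshold, RPL17 to RPL5 (-0.76), RPL17 to RPS10 (-0.91), RPL29 to RPL5 (-0.72) and RPL29 to RPS10 (-0.87). For RPL17 to RPL5 and RPL17 to RPS10 the exact permutation p was 0.0286 on both scales, and only the adjustment changed. Paired by number, an exact sign-flip test of a ratio cannot go below 0.125.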

Other observations

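Whether the petc change differed between the sets was tested with an interaction term in limma, chosen after the data were seen. For RPL29 the normalised log2 fold change was higher, that is closer to 0, in numbers 3 and 4 than in numbers 1 and 2 by 0.32 ± 0.14 (SE, unadjusted p = 0.0635, limma adjusted p = 0.379). For RPL17 the difference was -0.10 ± 0.11 (SE, limma adjusted p = 0.724), for RPL5 0.09 ± 0.15 (0.824) and for RPS10 -0.10 ± 0.31 (0.916). None of the 4 passed. Over all 2947 probes 3 passed, or 0.102%. The test measures only the spread between duplicates of a set.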
